A study of Mus musculus with 6 samples.

Results

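P4-ATPases are the lipid flippases, membrane pumps that use ATP to move phospholipids from the outer or luminal leaflet of a membrane to its cytosolic leaflet. By keeping phosphatidylserine inside the cell they prevent the exposure of this lipid, which marks dying cells for uptake and is also shown transiently by activated lymphocytes. Most of them leave the endoplasmic reticulum only with a small partner protein of the CDC50 family, chiefly the product of Tmem30a, whereas the products of Atp9a and Atp9b work without it. The genes described here are 10 flippase genes, Atp8a1, Atp8b1, Atp8b2, Atp8b4, Atp9a, Atp9b, Atp10a, Atp10d, Atp11a and Atp11b, of 23366 genes in the table. The list was drawn up with the comparison of the sorted fractions known, and led by Atp8b4, so the differences of these genes between the fractions are given as a description. Whether edgeR called them is stated beside the share of all genes called, with no p-value, and is no independent evidence. The table also held family genes that are not on the list, among them Atp8a2, Atp8b3, Atp8b5 and Atp10b.

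The RNA came from CD4+ effector T cells of mesenteric lymph nodes. The hosts were Rag-deficient mice, which lack lymphocytes with rearranged receptors, and had received T cells 6 weeks earlier. Mdr1+ cells were sorted for low and Mdr1- cells for high signal of the dye Rh123, a substrate of the transporter Mdr1, with 3 libraries per fraction. The labels name Mdr1+ and Mdr1- as genotype or variation, but the groups are gates on the dye and not engineered alleles. All 6 libraries share the strain background FVB/N. The Rag gene that the hosts lacked, their age, the donor T cell population, and whether a library came from 1 mouse or a pool are not given in the labels, so the errors below measure the spread between these samples, which may be technical.

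Libraries held 2220691 to 20771456 counts in genes, so that 3 counts correspond to 0.144 to 1.35 CPM (counts scaled to a common library size). The fractions differed in Abcb1a, a gene for Mdr1, at 132 to 178 CPM in Mdr1+ against 42.0 to 73.4 CPM in Mdr1- cells. Abcb1b, also a gene for Mdr1, overlapped between them, with a log2 fold change of 0.75 ± 0.48 (SE). It was at 139, 41.6 and 101 CPM in Mdr1+ against 75.9, 25.1 and 66.2 CPM in Mdr1- libraries 1, 2 and 3. Its ratios between libraries of the same replicate number were 1.83, 1.66 and 1.52. The 10 T cell markers had summed levels of 5498 to 6795 CPM in Mdr1+ against 5383 to 6102 CPM in Mdr1- libraries. The Mdr1- library of replicate 3 stood apart by a summed level of 86.4 CPM over 9 myeloid markers, against 0.701 to 6.60 CPM in the other libraries. Its part in the results was not tested, and values without it are given where a call was lost. CPM are scaled by the trimmed mean of M-values (TMM). In bulk samples, fewer cells that carry a transcript and less transcript per cell cannot be told apart.

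Atp8b4 was about 3-fold higher in Mdr1+ cells and was the flippase gene that set the fractions apart most. It encodes a P4-ATPase of the same subfamily as the bile canaliculus flippase Atp8b1. It had 312, 909 and 94 reads in Mdr1+ libraries 1, 2 and 3 against 161, 155 and 87 reads in Mdr1- libraries 1, 2 and 3. Scaled for depth, this was 51.8, 42.5 and 44.3 CPM in Mdr1+ cells against 18.0, 13.4 and 14.8 CPM in Mdr1- cells. The fractions did not overlap, and the lowest Mdr1+ library lay more than 2-fold above the highest Mdr1- library. Mdr1+ libraries averaged 46.2 ± 4.96 CPM and Mdr1- libraries 15.4 ± 2.34 CPM (SD, n = 3 each), and the fitted log2 fold change was 1.59 ± 0.22 (SE), or 3.00-fold. Ratios between libraries of the same replicate number were 2.88, 3.17 and 3.00, so the size of the difference varied little between the numbers. By fold it was rank 10 among the 30 genes that edgeR called higher in Mdr1+ cells at an adjusted p threshold of 0.05. It was no longer among the called genes without the Mdr1- library of replicate 3 (1.56), or without both libraries of replicate 1 (1.56), 2 (1.56) or 3 (1.57), although its fold change hardly moved.

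The sequence upstream of Atp8b4 is shown because this gene carries the main difference in the family. The RefSeq table holds 1 start site for the gene, and the 250 bases before it lie at chr2:126491554-126491803 on the minus strand of GRCm38.p6, a C57BL/6J genome, whereas the cells were of FVB/N background. Capitals mark matches to GGAAGTG, an ETS-type core, at 129 and 113 bases before the start, and to TGANTCA, the AP-1 motif, at 38 bases before it.
Atp8b4: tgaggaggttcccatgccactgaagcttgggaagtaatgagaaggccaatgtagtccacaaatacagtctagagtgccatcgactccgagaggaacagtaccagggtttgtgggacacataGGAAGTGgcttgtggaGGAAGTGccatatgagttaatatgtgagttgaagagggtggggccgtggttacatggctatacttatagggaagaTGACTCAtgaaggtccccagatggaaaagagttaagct
Both motifs were searched on both strands and were chosen after this sequence was read, and the matches do not overlap. Of 32851 windows of the same length before RefSeq start sites, 6.75% hold TGANTCA and 8.55% hold GGAAGTG. Among 7 of the 10 flippase genes with such a window (11 windows), Atp8b4 was the only gene with a match to either motif. The T-box motif AGGTGTGA, present in 1.12% of windows, was in none of the 11. Which start site these cells use was not measured.

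**Figure D1:**
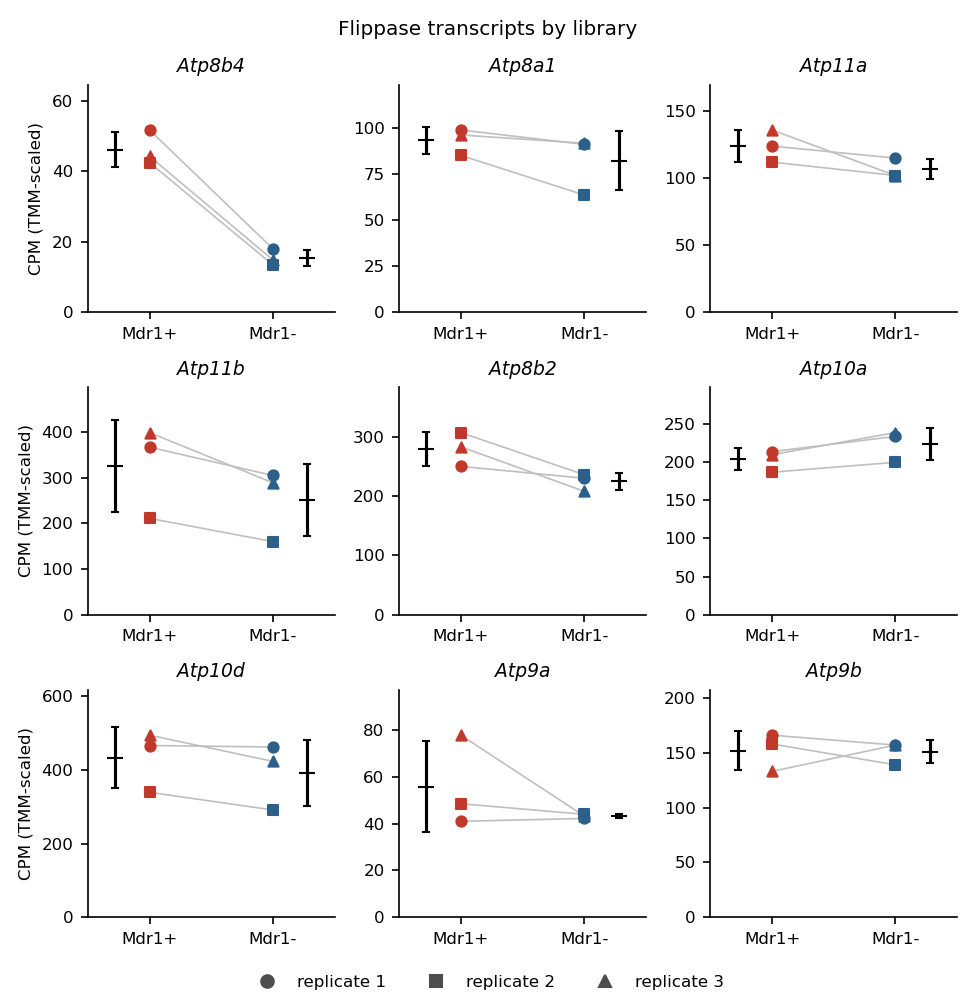
TMM-scaled CPM (y axes, linear from 0) of 9 flippase genes in Mdr1+ (red, left) and Mdr1- (blue, right) libraries; symbols are replicate numbers, grey lines join equal numbers, and the mean with its SD (3 libraries) is drawn in black. Atp8b4 lies at 42.5 to 51.8 CPM in Mdr1+ against 13.4 to 18.0 CPM in Mdr1- libraries, and Atp11b and Atp10d are lowest in replicate 2 of each fraction.

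Across the list, 9 of 10 genes passed the filter on low counts, and 1 of them, Atp8b4, was called, where 2.22% of all 10897 tested genes were called in either direction, 0.275% higher and 1.95% lower in Mdr1+ cells. With the replicate number as a block, 2 were called, Atp8b4 and Atp11b, both higher in Mdr1+ cells, where 12.4% of all genes were called and 5.81% were higher. The fitted log2 fold change was above 0 for 8 of the 9 (54.2% of all tested genes), with a median of 0.21 against 0.04 over all genes. The Mdr1+ library was the higher in all 3 pairs for 6 of the 9 (28.2% of all genes) and the lower in all 3 for 1, Atp10a (24.6% of all genes). Since the list was chosen with this comparison known, nothing is read from these counts.

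The phosphatidylserine flippases come first. Atp11b, whose product moves phosphatidylserine and phosphatidylethanolamine in endosomal membranes, was at 367, 211 and 399 CPM in Mdr1+ against 305, 160 and 289 CPM in Mdr1- libraries 1, 2 and 3. The fractions overlapped, with replicate 2 low in each, while the Mdr1+ library was higher in every pair, by ratios of 1.20, 1.32 and 1.38. Its log2 fold change was 0.37 ± 0.30 without the block and 0.37 ± 0.08 with it. Atp11a, whose product works at the plasma membrane and is cut by caspases during apoptosis, was at 124, 112 and 136 CPM in Mdr1+ against 115, 102 and 102 CPM in Mdr1- libraries (0.21 ± 0.16), with overlapping fractions. Atp8a1, a flippase gene of recycling endosomes and the plasma membrane, was at 98.9, 85.1 and 96.2 CPM in Mdr1+ against 91.1, 63.6 and 91.7 CPM in Mdr1- libraries (0.18 ± 0.19). Its lowest value was again in replicate 2 of the Mdr1- cells, and its fractions overlapped.

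Among genes whose human counterparts encode phosphatidylcholine flippases, Atp8b2 was the other gene of the list without overlap between the fractions. It was at 250, 307 and 283 CPM in Mdr1+ against 230, 236 and 208 CPM in Mdr1- libraries, with pair ratios of 1.09, 1.30 and 1.36 and a log2 fold change of 0.32 ± 0.16. Having no overlap is common here, at 19.7% of all tested genes (8.71% with Mdr1+ above), and Atp8b2 was not called with or without the block. Atp10a was at 214, 187 and 210 CPM in Mdr1+ against 234, 200 and 239 CPM in Mdr1- libraries, with overlapping fractions. It was the gene of the list with a negative fold change, of -0.14 ± 0.16, and the Mdr1+ library was the lower in each pair by a small margin (ratios 0.916, 0.935 and 0.879). Atp8b1, the gene mutated in a hereditary bile secretion disorder of humans, had 1 read in the Mdr1- library of replicate 1 and 0 in the other libraries, so its transcript was not detectable at this depth and no fold is given.

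Atp10d, whose human counterpart moves glucosylceramide, was at 466, 339 and 494 CPM in Mdr1+ against 462, 291 and 423 CPM in Mdr1- libraries. The fractions overlapped almost fully (0.14 ± 0.23). RefSeq classes Atp10d of the C57BL/6J reference as a transcribed pseudogene, and whether the FVB/N transcript is intact cannot be read from counts per gene. Of the CDC50-independent pair, Atp9a acts in recycling endosomes and was at 41.0, 48.5 and 77.8 CPM in Mdr1+ against 42.2, 44.0 and 43.3 CPM in Mdr1- libraries. The mean difference (0.35 ± 0.24) rested on the Mdr1+ library of replicate 3, the shallowest, and without that library the log2 fold change was 0.04. Atp9b, a gene of the trans-Golgi network, was at 166, 158 and 133 CPM in Mdr1+ against 157, 139 and 157 CPM in Mdr1- libraries, with a log2 fold change of 0.01 ± 0.16 and pairs on either side of 1.

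**Figure D2:**
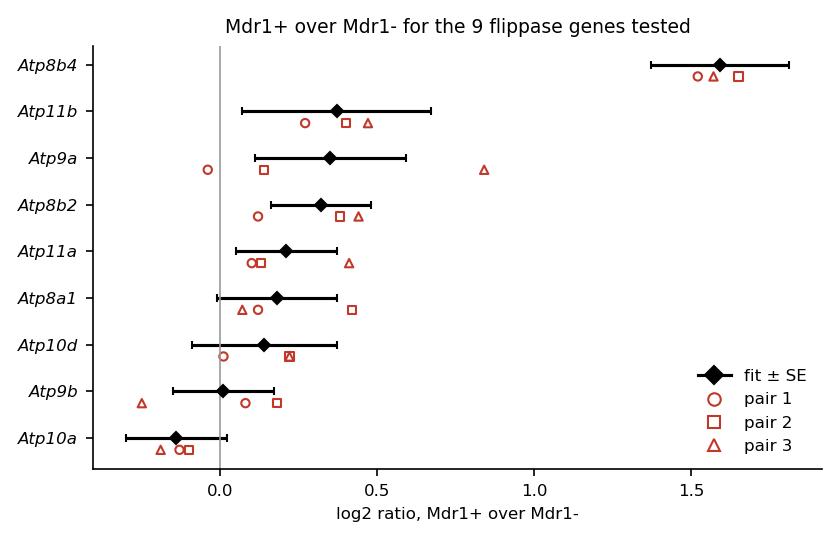
Log2 fold difference, Mdr1+ relative to Mdr1- (x axis), for the 9 tested flippase genes (y axis); black diamonds and bars are the fitted fold change and its SE, and open symbols the ratios of libraries with the same replicate number. Atp8b4 lies at 1.59 with pairs from 1.52 to 1.65, and the next largest fitted value is 0.37.

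Levels were compared between genes per kilobase of exon, with lengths from the GENCODE M21 annotation. Atp10d (68.1 ± 13.2 CPM per kb, SD over all 6 libraries) and Atp11b (59.2 ± 18.6) headed the list, followed by Atp8b2 (41.7 ± 6.03), Atp10a (39.5 ± 3.64) and Atp9b (27.9 ± 2.35). Neighbours in this upper part did not separate in every library: Atp10d exceeded Atp11b in 5 of 6 libraries, Atp11b exceeded Atp8b2 in 4 of 6 and Atp8b2 exceeded Atp10a in 4 of 6. Atp10a exceeded Atp9b, and Atp9b exceeded Atp11a, in 6 of 6. Atp11a (15.3 ± 1.72), Atp9a (12.2 ± 3.47) and Atp8a1 (10.5 ± 1.52) formed a lower tier, in which Atp9a exceeded Atp8a1 in 3 of 6 libraries. Atp8b4 was the lowest of the detected genes of the list in both fractions, at 7.99 ± 0.857 CPM per kb in Mdr1+ and 2.66 ± 0.405 CPM per kb in Mdr1- cells (SD, n = 3 each), and lay below Atp8a1 in 6 of 6 libraries. The order of the 10 genes was the same with the longest coding transcript as the length, although Atp10d was then at 174 CPM per kb because its annotated coding transcripts are short.

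**Figure D3:**
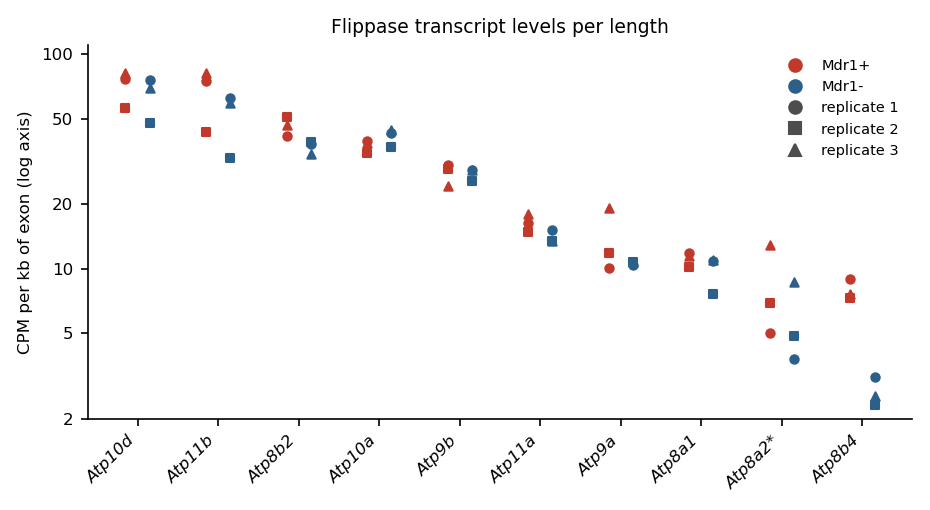
Transcript level per kilobase of exon (y axis, log scale) of 10 flippase genes detected in every library, from the highest to the lowest mean; red points (left) are Mdr1+ and blue points (right) Mdr1- libraries, symbols are replicate numbers, and the asterisk marks Atp8a2, which is not on the list. Atp10d and Atp11b reach 81.5 and 82.0 CPM per kb, and Atp8b4 spans 2.32 to 8.96 CPM per kb.

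As a share of the summed level of all 15 family genes on this per-length scale, Atp8b4 made up 2.50 ± 0.328% in Mdr1+ and 0.961 ± 0.0872% in Mdr1- cells (SD, n = 3 each). The share of Atp10a went the other way, at 10.7% to 12.6% in Mdr1+ libraries. In Mdr1- libraries its median was 14.9% and its maximum 16.2%, and the shares of the fractions did not overlap. The CPM of Atp10a did overlap, at 187 to 214 in Mdr1+ against 200 to 239 in Mdr1- libraries (-0.14 ± 0.16). A share depends also on the other family genes, so a fall of Atp10a itself is not read from it. Atp10d took 22.0 ± 1.39% and 23.1 ± 1.88% in Mdr1+ and Mdr1- cells, and Atp11b 20.4 ± 3.92% and 18.2 ± 3.34%. The summed level itself was 333, 273 and 361 CPM per kb in Mdr1+ and 308, 229 and 297 CPM per kb in Mdr1- libraries, which overlapped. Replicate 2 was the lowest library of each fraction.

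Variation between replicate numbers was not used to choose the genes and was tested for all genes in edgeR's quasi-likelihood test with fraction as a covariate. Of the 9 flippase genes 2 differed between the numbers, Atp11b (adjusted p = 0.00124) and Atp10d (adjusted p = 0.00925), where 17.0% of all tested genes did. In each fraction Atp11b lay lower in replicate 2 than in the others, with log2 deviations from the group mean of -0.57 in Mdr1+ and -0.59 in Mdr1- cells. For Atp10d these deviations were -0.33 and -0.40. Without replicate 2 neither gene was called. Atp8b4 was not called (adjusted p = 0.36), and its deviations stayed within -0.19 to 0.23. The numbers come from the sample titles, and what they mark is not stated.

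Tmem30a, the gene of the CDC50 partner, differed between the replicate numbers, while its difference between the fractions did not pass the test. It was at 312, 135 and 212 CPM in Mdr1+ against 316, 127 and 263 CPM in Mdr1- libraries 1, 2 and 3. Replicate 2 was again the lowest in each fraction (edgeR, adjusted p = 0.000813 between numbers), and the log2 fold change between fractions was -0.10 ± 0.37 (edgeR, adjusted p = 0.95, and 0.678 with the block). Tmem30b and Tmem30c had at most 13 and 3 reads in a library and were not tested. Of the family genes outside the list, Atp8a2, best known from neurons, was at 71.1, 98.6 and 183 CPM in Mdr1+ against 53.7, 69.2 and 123 CPM in Mdr1- libraries, and was highest in replicate 3 of each fraction (edgeR, adjusted p = 0.000859 between numbers). Between fractions its log2 fold change was 0.51 ± 0.39 (edgeR, adjusted p = 0.683), and it rose in Mdr1+ cells with the block (0.50 ± 0.10, edgeR, adjusted p = 0.0145). Atp8b3 had at most 5 reads in a library and Atp10b at most 2, and Atp8b5 had 0 in all 6.

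**Figure D4:**
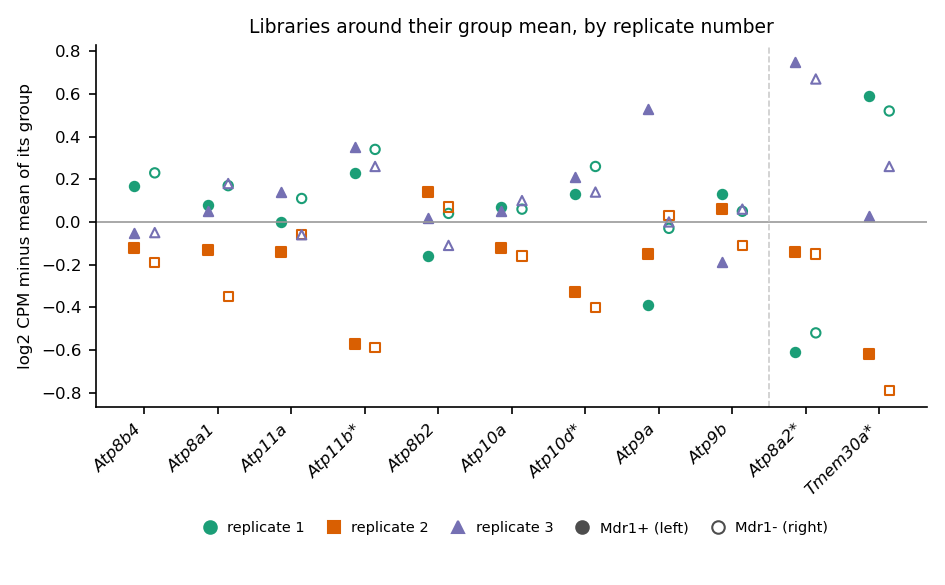
Log2 CPM of each library minus the mean of its fraction (y axis) for the 9 tested flippase genes and, right of the dashed line, Atp8a2 and Tmem30a; colours and symbols are replicate numbers, filled points (left) Mdr1+ and open points (right) Mdr1-. Asterisks mark genes that differed between numbers; replicate 2 of Atp11b lies at -0.57 and -0.59.

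Other genes of lipid translocation showed no change between the fractions that passed the test without the block. Excluding other P-type ATPases, 33 of 52 listed genes were tested, with a median log2 fold change of 0.13. In edgeR 0 of the 33 were called, 6 had an unadjusted p under 0.05, and limma-voom called 0. DESeq2 called 1, lower in Mdr1+ cells. Of all 10897 tested genes, edgeR called 242, or 2.22%, and 1292 had an unadjusted p under 0.05. Limma-voom called 262 of all tested genes and DESeq2 called 500. With the block 4 rose and 1 fell, where 5.81% of all genes rose and 6.57% fell. Besides Atp8a2, the genes that rose were Dopey1 and Dopey2, whose products belong to a complex with Mon2 on endosomes and Golgi, and Abcg1, a sterol exporter gene.

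Dopey2 was at 108, 141 and 127 CPM in Mdr1+ against 80.4, 84.9 and 91.7 CPM in Mdr1- libraries (0.55 ± 0.17, edgeR, adjusted p = 0.183, and 0.0117 with the block). Dopey1 had a log2 fold change of 0.41 ± 0.17 (edgeR, adjusted p = 0.382, and 0.0235 with the block), and, as for Dopey2, its fractions did not overlap. Mon2 was at 231 ± 24.8 CPM (Mdr1+) against 197 ± 35.3 CPM (Mdr1-; SD, n = 3 each) and was not called in either fit. Abcg1 averaged 297 ± 49.3 CPM (Mdr1+) against 205 ± 26.8 CPM (Mdr1-; SD, n = 3 each, log2 fold change 0.54 ± 0.19, edgeR, adjusted p = 0.274, and 0.00666 with the block).

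Of the scramblases, which let lipids cross the bilayer in both directions without ATP, and their partners, 11 of 23 were tested and 0 were called in edgeR with or without the block, in DESeq2 or in limma-voom, with 1 at an unadjusted p under 0.05. Ano6, the calcium-activated scramblase gene, was at 148 ± 15.2 CPM (Mdr1+) against 135 ± 13.8 CPM (Mdr1-; SD, n = 3 each). Xkr8, the gene of a caspase-activated scramblase, was at 1.45 ± 1.43 CPM (Mdr1+) against 1.58 ± 1.05 CPM (Mdr1-; SD, n = 3 each). It had 9, 61 and 0 reads in Mdr1+ against 7, 32 and 7 reads in Mdr1- libraries 1, 2 and 3. In the Mdr1+ library of replicate 3, 3 counts correspond to 1.35 CPM, so depth limits this comparison. None of 7 tested genes of phosphatidylserine and phosphatidylethanolamine synthesis was called in edgeR with or without the block, in DESeq2 or in limma-voom, and 1 had an unadjusted p under 0.05. Of 12 tested P-type ATPases that pump ions or other substrates 0 were called without the block in edgeR, DESeq2 or limma-voom, and 0 had an unadjusted p under 0.05. With it 1 fell, the calcium pump gene Atp2a3 (-0.41 ± 0.09, edgeR, adjusted p = 0.019). Their median log2 fold change was 0.02, and their difference from the flippases was not tested. Of all 10897 tested genes, edgeR called 2.22% without the block and 12.4% with it, DESeq2 500 and limma-voom 262. An unadjusted p under 0.05 was found for 1292 of all tested genes. At these rates lists as short as those here hold few calls or none, so nothing is read from their counts.

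**Figure D5:**
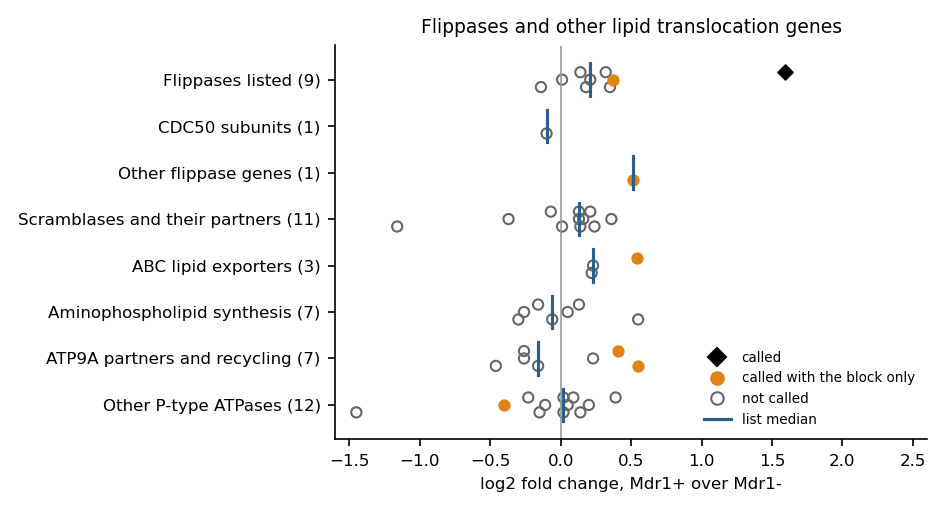
Fitted log2 fold change, Mdr1+ over Mdr1- (x axis), of each tested gene in the flippase list and in 7 other lists (y axis, number tested in parentheses); blue lines are list medians, the black diamond is Atp8b4, called without the block, and orange points were called in edgeR only with the replicate number as a block. The other flippases lie between -0.14 and 0.37.

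The genes most like Atp8b4 were ranked by the root mean square difference of log2 CPM over the 6 libraries, each gene centred on its own mean, among 9724 tested genes off the list whose average log2 CPM was 2 or more. Closest was Fasl, the gene of the death receptor ligand, at a distance of 0.11, with 327, 263 and 315 CPM in Mdr1+ against 133, 82.8 and 106 CPM in Mdr1- libraries 1, 2 and 3. In Fasl as in Atp8b4, replicate 1 was the highest and replicate 2 the lowest of each fraction. Next came Il7r, the interleukin 7 receptor gene, and Rhoq, a small GTPase gene, each at 0.22, then Abcb1a at 0.24 and Mir1904, a microRNA gene, at 0.24. Abcb1a, a gene whose product the sort read out, was at 177, 132 and 178 CPM in Mdr1+ against 72.9, 42.0 and 73.4 CPM in Mdr1- libraries. These genes share the difference between the fractions that the list was chosen on.

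Markers of other cell types were set beside Atp8b4. Summed over 6 B cell markers the level was 11.1 to 22.8 CPM in Mdr1+ against 6.59 to 11.1 CPM in Mdr1- libraries, and 1 of 3 tested, Cd22, was higher in Mdr1+ cells with the block, while Ms4a1 and Pax5 reached at most 0.259 CPM. Over 7 dendritic cell markers it was 22.4 to 47.6 CPM in Mdr1+ against 58.0 to 88.5 CPM in Mdr1- libraries, most of it Cd74. With the block 2 of 4 tested, Cd74 and H2-Aa, were lower, where 6.57% of all genes were lower and 5.81% higher. Itgax, Flt3 and Siglech reached at most 2.51, 0.335 and 0.340 CPM in a library. Over 5 mast cell and basophil markers the summed level was 0.00 to 1.07 CPM in Mdr1+ against 1.47 to 2.21 CPM in Mdr1- libraries. Fcer1a and Ms4a2 had no reads in any library. The NK cell markers Klra4 and Klra8 had no reads, while Klrb1c and Klre1 had positive log2 fold changes that did not pass the test (0.81 and 3.13, edgeR, adjusted p = 0.352 and 0.233, and 0.0559 and 0.0897 with the block). Over 6 stromal and endothelial markers it was 117 to 191 CPM in Mdr1+ and 125 to 136 CPM in Mdr1- libraries, nearly all of it Pecam1, which T cells also express, and Pdgfra had no reads. Of the 3 tested, 1 fell, the smooth muscle actin gene Acta2, at 0.00, 0.280 and 0.00 CPM in Mdr1+ against 4.35, 6.40 and 4.08 CPM in Mdr1- libraries (-4.70, edgeR, adjusted p = 0.018, and 0.00459 with the block). Over 4 epithelial markers it was 1.99 to 10.8 CPM in Mdr1+ and 3.13 to 7.81 CPM in Mdr1- libraries, and over 2 CD8 markers 0.00 to 1.50 CPM in Mdr1+ and 1.34 to 2.21 CPM in Mdr1- libraries. The part of any of these lists in the result was not tested. In the Mdr1- library of replicate 3, with the myeloid transcripts, Atp8b4 was at 14.8 CPM, between the other Mdr1- libraries.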

How the data were processed

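The authors deposited raw read counts per gene symbol, with 1 column per library. Libraries were prepared from 500 ng of RNA each by a strand-specific method, per the labels' protocols. The submitters' processing notes list TopHat, HTSeq, DESeq2 and mouse build mm9. Their versions, and the gene annotation and strand option of the counting, are not stated there. Rows of unassigned reads, present for replicates 1 and 2, stayed out of library sizes. Reads without a unique position were 67.0% to 73.2% of entries there and reads in no feature 13.2% to 19.7%.

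The columns of replicate 3 stand in another row order. They were placed on the names sorted ignoring case, which raised Spearman correlations across genes with replicates 1 and 2 to 0.926 to 0.962, against 0.424 to 0.460 as deposited. Replicates differed by more than sampling noise (chi-square per degree of freedom 14.5 to 53.7).

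Tests used edgeR 4.0.16 in R 4.3.3 on the counts: TMM scaling, filterByExpr by fraction (10897 genes kept), the robust quasi-likelihood F test and Benjamini-Hochberg adjustment over all tested genes at 0.05. Log2 CPM used a prior count of 2. Fold changes are Mdr1+ over Mdr1-, and their errors are the fold change over the root of F. Deviations from fraction means correlated within replicate numbers at 0.41, 0.57 and 0.21 across genes, all above 0.1. On that ground samples of equal number were treated as pairs in the ratios and in the fit with the block. The labels do not state such pairs. Comparisons of fractions given without the block, and their errors, come from fits on fraction only. DESeq2 1.42.0 and limma 3.58.1 (voom) were alternatives. The test was checked on simulated data. Genes named are all 10 flippases, the CDC50 and other family genes, list genes called in either fit, the 5 genes nearest to Atp8b4 and genes given as context. Mon2, Ano6, Xkr8 and the members of marker lists were named for their function after values were seen. Some genes of the lists, counted in the totals, are not reported here. The flippases, the lists and the rules were chosen with earlier results of these data known. Exon lengths are those of the GENCODE M21 basic annotation and the promoter sequence is from RefSeq, both on GRCm38 and not the authors' build, so no coordinates of the counted genes are given. RefSeq protein sequences were not used here.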

Additional observations from a re-analysis of the deposited data

How the results depend on the processing

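The fold change of Atp8b4 was 1.53 to 1.59 under DESeq2 size factors, library totals, no count filter, DESeq2, limma-voom and the block, and 1.45 to 1.68 when 1 library or 1 replicate number was left out. Of the flippases, 1 was called under each of these settings except that 2 were with the replicate block and 0 to 1 when libraries were left out. Over all genes 242 were called, 500 with DESeq2, 1349 with the replicate block, and 0 to 210 when libraries were left out. Of the genes in the other lists 0 were called, 1 with DESeq2 and 6 with the replicate block. Between replicate numbers 2 flippases differed, 3 with limma-voom, and 0 to 3 when a number was left out. With replicate 3 in the deposited row order, 0 genes and 0 flippases were called between fractions, and 8 flippases between numbers. The row order itself causes that change. The cause of the other changes was not tested. Among uncalled flippases, Atp9b took the other sign in 7 of 15 settings other than the deposited order and Atp10d in 1. Depth limits Atp8b1, Atp8b3, Atp8b5 and Atp10b.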
